A study of Homo sapiens with 12 samples.

Results

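The mitochondrial genome of human cells carries its own small set of genes, and the deposited count tables hold them as the rows whose symbol begins with MT-. These rows were taken by symbol alone, with earlier results of these data known. They number 37 of the 63677 gene rows: 13 mRNAs, 2 ribosomal RNAs (rRNAs) and 22 transfer RNAs (tRNAs). A read was counted for 36 of the 37, and MT-TK, the lysine tRNA, was at 0 in all 12 libraries. A filter on low counts left 31 members in the tests: the 13 mRNAs, both rRNAs and 16 tRNAs. The untested members were the tRNAs MT-TW, MT-TN, MT-TS1, MT-TK, MT-TG and MT-TR, which had between 0 and 27 reads summed over all libraries.

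The study asked how cells with a normal or an altered LSD1 respond to an LSD1 inhibitor. LSD1, encoded by KDM1A, removes methyl groups from histone H3, and GSK-LSD1 is a small molecule that blocks it. The cells were SET-2, an established line labelled acute myeloid leukemia, either wild type (WT) or carrying the LSD1 change Leu659_Asn660insArg, an added arginine named insR in the labels and described there as drug-resistant. Each genotype was given 250 nM GSK-LSD1 or the solvent DMSO at 0.1% by volume, for 48 hours. The groups were thus WT DMSO, WT GSK-LSD1, insR DMSO and insR GSK-LSD1, with 3 libraries in each. The labels do not say whether libraries of a group came from separate cultures or whether insR cells are 1 clone. The p-values therefore measure the spread between these libraries, which may be technical, and a difference between insR and WT cells cannot be told apart from a difference between lines.

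As background, mitochondrial DNA is copied into RNA from both strands as long transcripts that span many genes, and enzymes cut these apart, mostly at the tRNAs that sit between the other genes. The heavy-strand transcript holds both rRNAs, nearly all mRNAs and most tRNAs, while the light-strand transcript holds MT-ND6 and the remaining tRNAs. The mRNAs encode core subunits of the respiratory chain and of ATP synthase, the rRNAs form the core of the mitochondrial ribosome, and the tRNAs read the codons. Mitochondrial RNAs carry short poly(A) tails or none, and MT-ND6 is reported to have little or no tail. The QuantSeq 3' method used here starts from poly(A) or other runs of A, so a read count follows the amount of RNA that can be primed and not the amount of RNA alone.

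Libraries held 4837096 to 10141155 reads in genes. KDM1A RNA was at 265 ± 26.5 CPM in untreated WT cells and 109 ± 2.18 CPM in untreated insR cells (mean ± SD of 3 libraries). CPM are counts of a gene scaled to a common library total with TMM factors. The number of KDM1A gene copies is not given, and this RNA level is no check of the amino acid insertion. Of 12 blood-lineage marker genes, 11 were at 1 CPM or more in every library of each group (markers of other cell types are given beside the rRNAs). All 37 members together took 2.7 to 4.54% of reads in genes.

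The summed rRNA share of reads was higher in WT cells given GSK-LSD1 than in any other group, whereas the mRNA share was not. Earlier results had shown the share of all members to rise in treated WT cells without a rise of the mRNAs. The classes were given apart for that reason, so this contrast was known beforehand. The 2 rRNAs took 1.69, 1.85 and 1.58% of reads in genes in the WT DMSO libraries and 2.81, 2.45 and 2.49% in the WT GSK-LSD1 libraries. In insR cells they took 1.88, 1.77 and 1.84% with DMSO and 1.57, 1.73 and 1.94% with GSK-LSD1. All 3 WT GSK-LSD1 libraries lay above the other 9, and the ratio of the WT group means was 1.51.

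The 13 mRNAs together took 1.49, 1.61 and 1.27% of reads in WT DMSO and 1.63, 1.4 and 1.37% in WT GSK-LSD1, a ratio of means of 1.01. They took 1.53, 1.45 and 1.65% in insR DMSO and 1.08, 1.37 and 1.56% in insR GSK-LSD1, a ratio of 0.866. The groups overlapped in both comparisons. The number of rRNA reads per mRNA read was 1.13, 1.15 and 1.24 in WT DMSO against 1.72, 1.75 and 1.82 in WT GSK-LSD1, with a ratio of means of 1.5. In insR cells it was 1.23, 1.22 and 1.11 with DMSO and 1.45, 1.26 and 1.24 with GSK-LSD1. The insR groups did not overlap either, with a ratio of 1.11, while all insR libraries lay below the treated WT libraries.

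The tRNAs made up the smallest class, at 0.102, 0.0851 and 0.0738% of reads in WT DMSO and 0.107, 0.12 and 0.0991% in WT GSK-LSD1. In insR cells they were at 0.082, 0.0728 and 0.0502% with DMSO and 0.0491, 0.057 and 0.0699% with GSK-LSD1. The WT groups overlapped, as did the insR groups. MT-TL1, a leucine tRNA that adjoins MT-RNR2, supplied 60.1% of all tRNA reads and MT-TF, the phenylalanine tRNA that adjoins MT-RNR1, 28.5%, so the summed tRNA share mostly follows these genes.

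**Figure D1:**
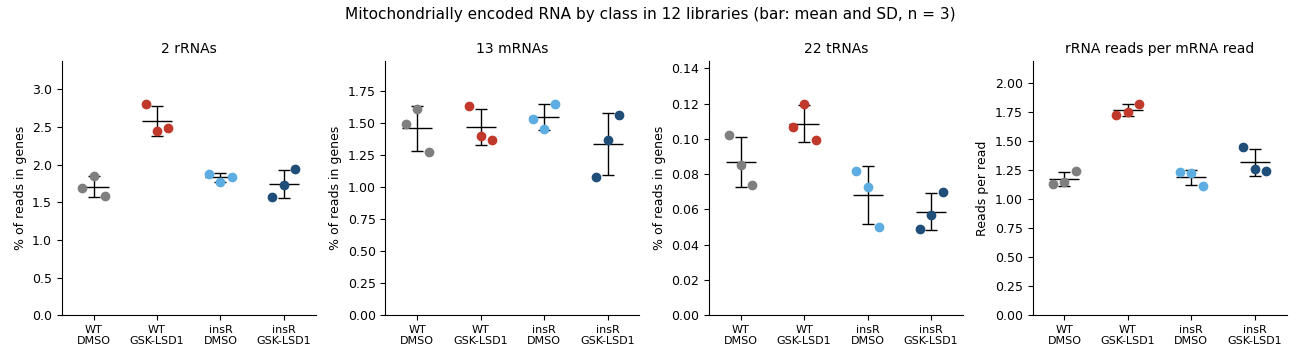
Share of reads in genes taken by the 2 rRNAs, 13 mRNAs and 22 tRNAs, and rRNA reads per mRNA read, in each of the 12 libraries (points) with the mean and SD of each group. The 3 WT GSK-LSD1 libraries lie above all others in the rRNA panel, between 2.45 and 2.81%, while in the mRNA panel every group overlaps every other.

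The WT response to GSK-LSD1 was compared gene by gene across 12864 genes with edgeR's quasi-likelihood test, and a gene is called here at a Benjamini-Hochberg adjusted p under 0.05. Of the 31 tested members 11 were called, 5 higher and 6 lower. In the same comparison 45.2% of all tested genes were called, 22.7% higher and 22.5% lower, so the members' share is below that of all genes. Their median log2 fold change was -0.01, beside 0.01 for all tested genes, with both rRNAs on the higher side and light-strand members on the lower side.

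Both rRNAs rose in WT cells. MT-RNR2, the 16S rRNA of the large ribosomal subunit and the source of 51.3% of all member reads, was at 15074, 16877 and 14198 CPM in WT DMSO and at 25952, 21689 and 22282 CPM in WT GSK-LSD1. The treated libraries did not overlap the controls. The log2 fold change was 0.60 (SE 0.095, edgeR adjusted p = 1.5e-05), a 1.52-fold rise.

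MT-RNR1, the 12S rRNA of the small subunit, was at 1685, 1574 and 1505 CPM in WT DMSO and at 2315, 1932 and 2099.5 CPM in WT GSK-LSD1. All treated libraries were above all controls, with a log2 fold change of 0.41 (SE 0.08, edgeR adjusted p = 3.04e-04). Both calls held under every alternative scaling, filter and test and without each library in turn, with adjusted p between 2.69e-14 and 1.88e-04 for MT-RNR2 and between 7.66e-06 and 0.0029 for MT-RNR1. MT-RNR2 kept a like share of rRNA reads in all groups, between 89.9 and 92.1%.

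Because the libraries are primed on runs of A, the runs of 6 or more A inside the members were counted in the GENCODE 29 transcript sequences, which matched all 37 members and belong to a later build (GRCh38) than the authors' hg19. MT-RNR2 had 4 such runs, MT-RNR1 had 1, and 6 of the 12 heavy-strand mRNAs, 1 of the 14 heavy-strand tRNAs and 0 of the 9 light-strand members had any. Of 30-base windows tiled over all GENCODE transcripts 1.49% held AAAAAA, beside 2.62% of those tiled over the members. The 4 stretches of MT-RNR2 are given below as 30-base windows in the order of the RNA, 5′ to 3′, with the run of A in capitals.
MT-RNR2 run 1: ttggacactaggAAAAAAccttgtagagag
MT-RNR2 run 2: tgtagagagagtAAAAAAtttaacacccat
MT-RNR2 run 3: cacccactacctAAAAAAtcccaaacatat
MT-RNR2 run 4: taaggaaaggttAAAAAAAgtaaaaggaac
Gene counts do not say where along MT-RNR2 its reads began, so whether they came from these runs or from a tail was not tested.

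Other measures also differed between treated and untreated WT cells, and not all of them followed the rRNAs in insR cells. Reads outside genes were 16.3 to 16.7% of uniquely mapped reads in untreated WT cells, 18.4 to 19.5% in treated WT cells and 13.7 to 17.1% in insR cells. Over all tested genes 22.7% were called higher and 22.5% lower in treated WT cells. Of 4 long RNAs that stay in the nucleus, 2 were called higher and 0 lower. They were MEG3 with a log2 fold change of 1.08 (SE 0.12, edgeR adjusted p = 6.31e-08) and KCNQ1OT1 with 0.86 (SE 0.22, adjusted p = 0.0048). All 4 summed to 3650 to 4410 CPM in the WT DMSO libraries and 4480 to 5360 CPM in the WT GSK-LSD1 libraries. Most of this sum was MALAT1, which was not called, with means of 3930 and 4600 CPM. MEG3 had means of 51.8 and 109 CPM and KCNQ1OT1 of 23.3 and 42.5 CPM. In untreated and treated insR cells the means were 51.6 and 46.8 CPM for MEG3 and 16.6 and 16.4 CPM for KCNQ1OT1. Of the 4 nuclear RNAs, 0 were called in insR cells given GSK-LSD1. Of 12 markers of other cell types, 3 (PECAM1, MS4A1 and INS) were at 0 in all libraries and 5 could be tested. In treated WT cells 3 of the 5 were called higher and 0 lower: COL1A2 of fibroblasts, KRT8 of epithelium and CDH5 of endothelium. COL1A2 had means of 0.148 and 3.24 CPM in untreated and treated WT cells and at most 0.0339 CPM in insR groups. It passed the filter (1.67 CPM in at least 3 libraries) only through treated WT cells, so its call is not independent of the filter. CDH5 had means of 0.207 and 0.781 CPM in WT cells, below that filter, and of 4.7 and 3.55 CPM in insR cells. Lists of 4 and 5 tested genes are too short to set against the shares of all genes. The 12 summed to 2.5 to 4.21 CPM in untreated and 10.7 to 12.3 CPM in treated WT cells, and to 11.2 to 12.9 and 8.06 to 12.4 CPM in untreated and treated insR cells. The part of these measures in the rRNA rise was not tested.

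Counting reads outside genes in the denominator as well gave a log2 ratio of the WT rRNA shares of 0.56, beside 0.60 for reads in genes. The level of a class in bulk RNA follows both the number of mitochondria or cells and the RNA in each, which cannot be told apart here.

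**Figure D2:**
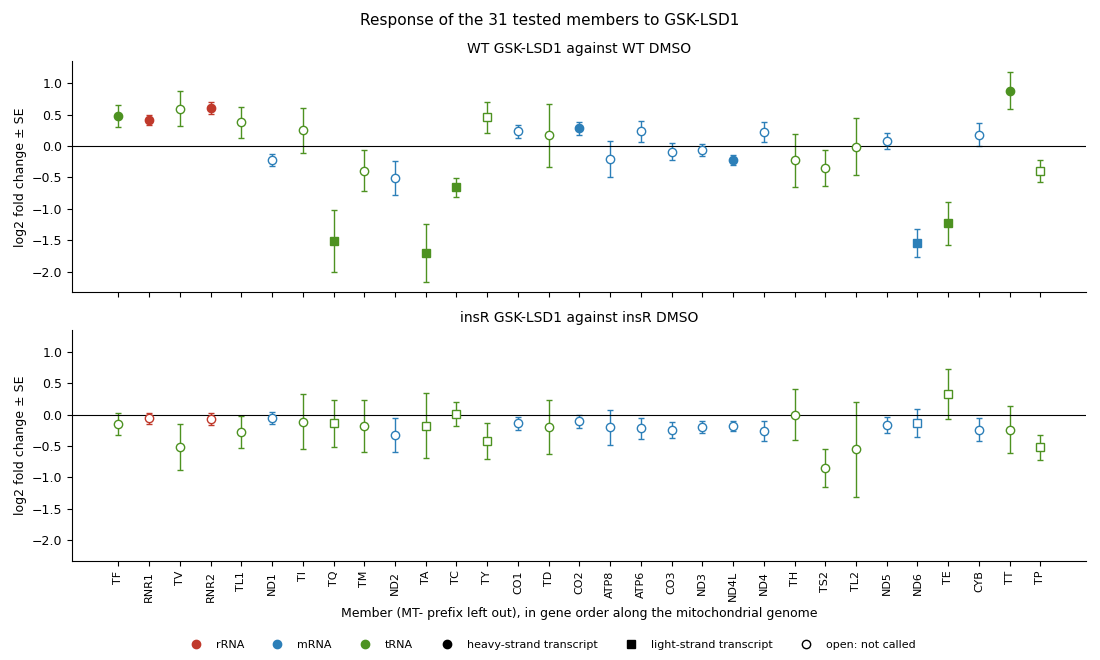
Log2 fold change (± SE) of the 31 tested members with GSK-LSD1 in WT cells (top) and insR cells (bottom), in gene order along the mitochondrial genome, coloured by class, with circles for the heavy-strand and squares for the light-strand transcript and open symbols for members not called. In WT cells both rRNAs lie above 0 and 5 of the 7 light-strand squares are filled and below 0, while in insR cells all symbols are open.

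Among the 12 heavy-strand mRNAs, 1 was called higher and 1 lower in treated WT cells, and their median log2 fold change was 0.01. MT-CO2, a subunit of cytochrome c oxidase, was at 1509.5, 1839 and 1456.5 CPM in WT DMSO and 2133, 1790.2 and 1905 CPM in WT GSK-LSD1. One DMSO library lay within the treated range, and the log2 fold change was 0.28 (SE 0.10, edgeR adjusted p = 0.0305). Leaving out replicate 1 or 3 of either WT group ended the call, with adjusted p of up to 0.136.

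MT-ND4L, a small membrane subunit of complex I, was at 276.5, 340.4 and 322 CPM in WT DMSO and 276, 259 and 267 CPM in WT GSK-LSD1. The lowest control was just above the highest treated library, and the log2 fold change was -0.23 (SE 0.08, edgeR adjusted p = 0.0248). This call was lost with upper-quartile scaling (adjusted p = 0.0782), with only the 2 groups fitted (0.0523), and when replicate 2 or 3 of either WT group was left out (up to 0.141).

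The other heavy-strand mRNAs did not pass the test, with log2 fold changes between -0.51 for MT-ND2 (SE 0.27, edgeR adjusted p = 0.156) and 0.23 for MT-CO1 (SE 0.10, adjusted p = 0.0767). By complex, 2 of the 7 complex I mRNAs were called lower, with a median of -0.22, and of the 3 cytochrome c oxidase mRNAs 1 was called higher, with a median of 0.23. MT-CYB of complex III had 0.18 and the ATP synthase pair MT-ATP8 and MT-ATP6 had -0.21 and 0.23, none of them called. MT-ATP8 and MT-ATP6 share 46 bases and MT-ND4L and MT-ND4 share 7, so reads there could have been split or left out as ambiguous.

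The light-strand transcript gives 9 members, MT-ND6 and 8 tRNAs, of which 7 were tested. In WT cells given GSK-LSD1, 5 of the 7 were called lower and 0 higher, with a median log2 fold change of -1.23. Of the 10 tested heavy-strand tRNAs 2 were called higher and 0 lower, with a median of 0.21. Over all tested genes 22.7% were called higher and 22.5% lower, so the heavy-strand count called higher is near that share. Both heavy-strand calls were lost in some alternative fits. The 9 light-strand members summed to 245, 206 and 191 CPM (of reads in genes, with no TMM scaling) in WT DMSO. They had 115, 125 and 105 CPM in WT GSK-LSD1. In insR cells they had 105, 83.8 and 85.5 with DMSO and 73.2, 80 and 94.6 with GSK-LSD1. The 3 WT DMSO libraries lay above the other 9.

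MT-ND6, a membrane subunit of complex I and the one mRNA of this strand, was at 119.7, 97.8 and 86.3 CPM in WT DMSO and 40.6, 39.0 and 26.3 CPM in WT GSK-LSD1. It was at 62.0, 45.5 and 53.8 CPM in insR DMSO and 38.0, 45.2 and 63.9 CPM in insR GSK-LSD1. All WT DMSO libraries were above all 9 others. The log2 fold change in WT cells was -1.55 (SE 0.22, edgeR adjusted p = 1.89e-04), and it held under every alternative, with adjusted p between 2.74e-27 and 0.00107.

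MT-ND6 made up 0.811, 0.609 and 0.683% of the mRNA reads in WT DMSO and 0.248, 0.289 and 0.196% in WT GSK-LSD1, so it was lower within the class as well. Its sequence differs from those of the other mRNAs in base content. In GENCODE 29 it was 19.6% A and 35.6% G, whereas the 12 heavy-strand mRNAs were 26.8 to 38.6% A and 6.3 to 16.2% G, and its longest run of A was 3 bases.

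Of the light-strand tRNAs, MT-TC (cysteine) had the most reads. It was at 64.1, 61.1 and 59.8 CPM in WT DMSO and 28.6, 42.4 and 45.3 CPM in WT GSK-LSD1. The groups did not overlap, and the log2 fold change was -0.66 (SE 0.15, edgeR adjusted p = 0.00126), called under every alternative.

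MT-TA (alanine) was at 3.34, 3.62 and 2.14 CPM in WT DMSO and 1.13, 0.576 and 1.02 CPM in WT GSK-LSD1, a log2 fold change of -1.70 (SE 0.46, edgeR adjusted p = 0.00421). MT-TE (glutamate), which directly follows MT-ND6 on the map, was at 6.32, 4.55 and 4.82 CPM and then 2.84, 2.11 and 1.83 CPM, a log2 fold change of -1.23 (SE 0.34, adjusted p = 0.00497). Neither tRNA overlapped between the groups, and both calls held under every alternative. The filter asked for 1.67 CPM or more in at least 3 libraries, and MT-TA reached it in the 3 WT DMSO libraries and 1 other, so its call is not independent of the filter. With all genes of at least 1 count in the fit its log2 fold change was -1.72 (edgeR adjusted p = 0.00253).

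MT-TQ (glutamine) was at 2.81, 2.28 and 1.25 CPM in WT DMSO and 0.756, 0.576 and 0.815 CPM in WT GSK-LSD1, a log2 fold change of -1.51 (SE 0.49, edgeR adjusted p = 0.0151). Without WT DMSO replicate 1 its adjusted p was 0.069, and it was not tested with only the WT groups in the fit. It shares 3 bases with MT-TI on the opposite strand. The counts behind MT-TA and MT-TQ were small, at 3 to 27 and 3 to 17 reads in each WT library.

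The remaining light-strand tRNAs were not called. MT-TP (proline) was at 34.8, 28.4 and 26.8 CPM in WT DMSO and 27.6, 24.6 and 17.2 CPM in WT GSK-LSD1, with a log2 fold change of -0.40 (SE 0.17, edgeR adjusted p = 0.0612). MT-TY (tyrosine), which overlaps MT-TC by 1 base, went the other way, with a log2 fold change of 0.45 (SE 0.24, adjusted p = 0.135). MT-TN and MT-TS1 were not tested.

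The sequences of the tRNAs called in this comparison are given below from GENCODE 29, 5′ to 3′ in DNA letters, with the anticodon in capitals, to show what distinguishes the strands. The first 4 are light-strand tRNAs, which were lower, and the last 2 are heavy-strand tRNAs, which were higher.
MT-TQ: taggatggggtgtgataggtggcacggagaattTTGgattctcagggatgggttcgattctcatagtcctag
MT-TA: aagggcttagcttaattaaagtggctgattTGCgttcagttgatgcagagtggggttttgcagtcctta
MT-TC: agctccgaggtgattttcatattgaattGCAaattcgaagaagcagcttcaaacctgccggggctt
MT-TE: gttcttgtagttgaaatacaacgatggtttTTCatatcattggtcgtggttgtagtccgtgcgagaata
MT-TT: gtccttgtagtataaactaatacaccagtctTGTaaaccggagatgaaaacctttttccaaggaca
MT-TF: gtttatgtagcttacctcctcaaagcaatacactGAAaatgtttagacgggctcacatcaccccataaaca
The 8 light-strand tRNAs were 18.8 to 30.3% A and 23.5 to 36.1% G, and the 14 heavy-strand tRNAs were 29.4 to 41.5% A and 10.3 to 19.1% G. The longest run of A in any light-strand member was 5 bases, in the untested MT-TS1. Whether the strand setting of the authors' counting separated the strands is not stated in the labels or tables; reads from the opposite strand over a light-strand member cannot be told apart from its own.

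**Figure D3:**
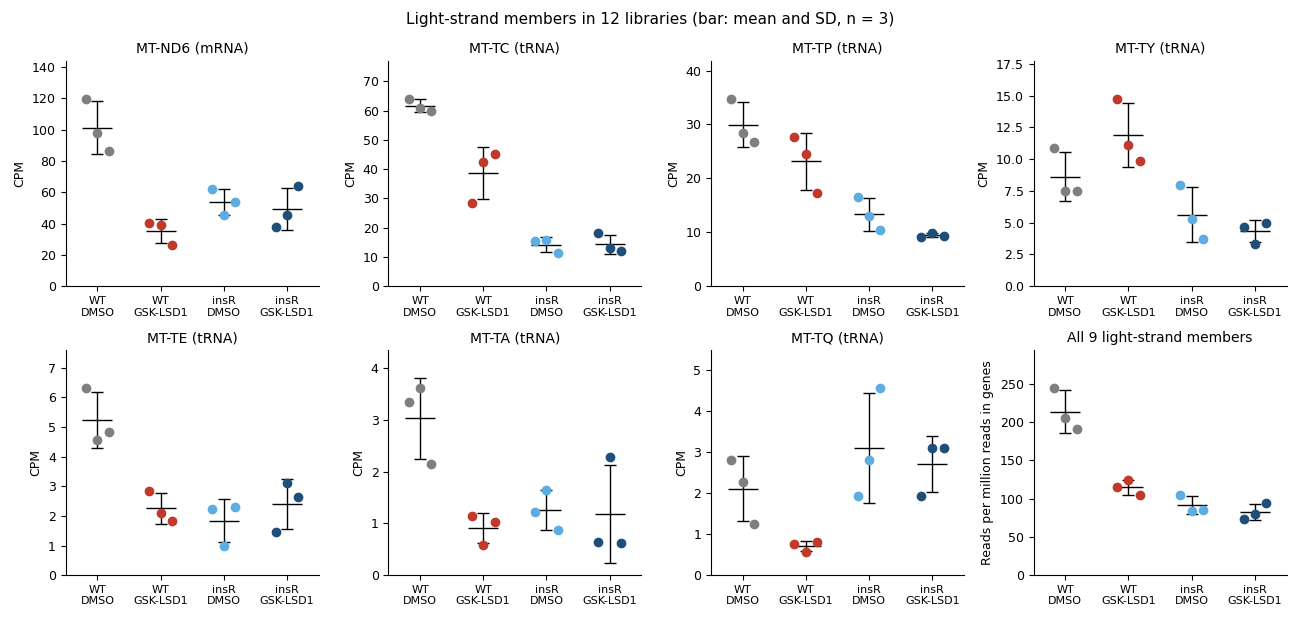
Level (CPM) of the 7 tested light-strand members, and the summed reads of all 9 (CPM of reads in genes), in each of the 12 libraries (points) with the mean and SD of each group. The WT DMSO libraries are the highest for MT-ND6, MT-TC, MT-TE and the sum, where they lie between 191 and 245. MT-TY, MT-TQ, MT-TA and MT-TP do not follow that order in every library.

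Of the heavy-strand tRNAs, MT-TT (threonine) was at 2.11, 4.29 and 2.5 CPM in WT DMSO and 6.43, 5.38 and 5.19 CPM in WT GSK-LSD1. The groups did not overlap, and the log2 fold change was 0.88 (SE 0.30, edgeR adjusted p = 0.0186). DESeq2 did not make the call, nor did fits that left out replicate 1 of either WT group or WT DMSO replicate 3, with adjusted p between 0.0605 and 0.0982.

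MT-TF was at 210.3, 195 and 169.9 CPM in WT DMSO and 293, 285 and 222 CPM in WT GSK-LSD1, with no overlap and a log2 fold change of 0.47 (SE 0.17, edgeR adjusted p = 0.0451). That call was lost with limma-voom (adjusted p = 0.0575) and in 7 of the 12 fits that left out 1 library: each WT DMSO replicate, WT GSK-LSD1 replicates 1 and 2, and replicate 2 of each insR group (0.0575 to 0.151).

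MT-TF, MT-RNR1, MT-TV, MT-RNR2 and MT-TL1 adjoin each other with 0 bases between them at the start of the heavy-strand map. All 5 had positive log2 fold changes in treated WT cells, but MT-TV at 0.59 (SE 0.28, edgeR adjusted p = 0.0893) and MT-TL1 at 0.38 (SE 0.25, adjusted p = 0.253) were not called. This block was singled out after its values were seen. How a read that spans the border of 2 adjoining genes was counted is not given in the sources used here.

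In insR cells GSK-LSD1 changed no member past the threshold: 0 of 31 members were called by edgeR, beside 0.505% of all tested genes (0.241% higher and 0.264% lower). An unadjusted p under 0.05 was found for 4 members: MT-TS2, MT-TP, MT-ND4L and MT-ND3, with adjusted p between 0.349 and 0.632. DESeq2, limma-voom and limma on the deposited normalized values also called 0. The 13 mRNAs had log2 fold changes between -0.32 and -0.06, with a median of -0.20 beside 0.00 for all genes.

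The rRNAs had values close to 0 in insR cells. MT-RNR2 was at 17606, 16321 and 17199 CPM with DMSO and 14423, 15795 and 18249 CPM with GSK-LSD1, and its log2 fold change was -0.08 (SE 0.09, edgeR adjusted p = 0.948). MT-RNR1 was at 1764, 1607 and 1485 CPM and then 1463.5, 1542 and 1644 CPM, with -0.06 (SE 0.08, adjusted p = 0.957). The groups overlapped for both.

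The insR response minus the WT response tests the difference in response itself. Of 31 members 4 were called by edgeR, with 2 differences above and 2 below 0, beside 25.1% of all tested genes (13.3% above and 11.8% below 0). MT-RNR2 had a difference of -0.68 on the log2 scale (SE 0.13, edgeR adjusted p = 5.64e-04) and MT-RNR1 of -0.48 (SE 0.12, adjusted p = 0.00459). MT-ND6 had a difference of 1.41 (SE 0.32, adjusted p = 0.00754).

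MT-TE had a difference of 1.56 (SE 0.52, edgeR adjusted p = 0.0306), from -1.23 in WT cells and 0.33 (SE 0.39) in insR cells. DESeq2 did not call it (adjusted p = 0.059). The call was also lost when any 1 of 5 libraries was left out (0.071 to 0.0879): WT DMSO replicate 1, WT GSK-LSD1 replicate 3, replicate 2 of either insR group, and insR GSK-LSD1 replicate 3. The differences for MT-TC (0.66, SE 0.24, adjusted p = 0.0517), MT-TQ (1.37, adjusted p = 0.114) and MT-TA (1.52, adjusted p = 0.123) did not pass the test. The number of members called rose to 8 without WT DMSO replicate 2, to 7 without insR DMSO replicate 3 and to 9 without insR GSK-LSD1 replicate 3, with the 2 rRNAs and MT-ND6 called in each.

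Without drug, most tested light-strand members were lower in insR than in WT cells. Of 31 members, 4 were called higher and 8 lower by edgeR, beside 30.1% of all tested genes (14.5% higher and 15.6% lower). The count called higher is near the share of all genes. These 4 were mRNAs, and each lost its call in some fits that left out 1 library. This comparison uses the same WT DMSO libraries as the WT drug response, so their values enter both. Of the 7 tested light-strand members 5 were called lower and 0 higher, with a median of -1.14.

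MT-TC was at 15.4, 15.8 and 11.4 CPM in insR DMSO, below every WT DMSO library, with a log2 difference of -2.10 (SE 0.17, edgeR adjusted p = 1.73e-09). MT-TP was at 16.56, 13.03 and 10.37 CPM, also below every WT DMSO library, with -1.14 (SE 0.18, adjusted p = 1.92e-05). MT-ND6 had -0.90 (SE 0.21, adjusted p = 0.00766) and MT-TE -1.46 (SE 0.35, adjusted p = 0.00193). These 4 calls held under every alternative.

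MT-TA had a log2 difference of -1.28 (SE 0.43, edgeR adjusted p = 0.0267), lost with DESeq2, with limma on the deposited normalized values and without WT DMSO replicate 1 or 2 or insR DMSO replicate 1 or 3 (up to 0.12). It reached the filter's 1.67 CPM in 3 WT DMSO and 0 insR DMSO libraries, so this call is not independent of the filter either. Of the heavy-strand tRNAs, 3 were also called lower. MT-TM (methionine) had -1.31 (SE 0.35, adjusted p = 0.00527), called under every alternative.

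MT-TV (valine) had a log2 difference of -0.90 (SE 0.31, edgeR adjusted p = 0.0304), lost without WT DMSO replicate 2 or insR DMSO replicate 1 or 3 (up to 0.169). MT-TL2, the other leucine tRNA, had -1.61 (SE 0.55, adjusted p = 0.0286), with groups that overlapped. Its call was lost with DESeq2 and without WT DMSO replicate 1 or 2 or insR DMSO replicate 1 or 3 (up to 0.162).

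The mRNAs called higher in insR DMSO were MT-ND4, MT-ND5, MT-CO1 and MT-CO2. MT-ND4, a proton-pumping subunit of complex I, was at 1152, 1237 and 977 CPM in WT DMSO and 1668, 1544 and 1845 CPM in insR DMSO. The groups did not overlap, and the log2 difference was 0.59 (SE 0.16, edgeR adjusted p = 0.016). MT-ND5, of the same arm of complex I, had 0.39 (SE 0.13, adjusted p = 0.0378).

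The cytochrome c oxidase mRNAs MT-CO1, which encodes its catalytic subunit, and MT-CO2 had log2 differences of 0.34 (SE 0.10, edgeR adjusted p = 0.0157) and 0.30 (SE 0.10, adjusted p = 0.0295). None of the 4 calls held without insR DMSO replicate 3 or without WT DMSO replicate 3 (adjusted p 0.0598 to 0.172). MT-CO2 and MT-ND5 also lost theirs without WT DMSO replicate 1, and MT-ND5 without insR DMSO replicate 1. Without insR DMSO replicate 3 the count of called members was 1 higher and 5 lower, of which 5 were among the 12. The rRNAs were not called: MT-RNR2 had 0.15 (SE 0.09, adjusted p = 0.259) and MT-RNR1 0.03 (SE 0.08, adjusted p = 0.842).

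Under GSK-LSD1, 1 member was called higher and 12 lower in insR than in WT cells by edgeR, beside 54.5% of all tested genes (27.0% higher and 27.5% lower). The comparison shares its libraries with the 2 drug responses. Both rRNAs were lower in insR cells, MT-RNR2 by a log2 difference of -0.53 (SE 0.095, edgeR adjusted p = 4.51e-05) and MT-RNR1 by -0.45 (SE 0.085, adjusted p = 8.41e-05). Every insR GSK-LSD1 library was below every WT GSK-LSD1 library for both.

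Of the tRNAs, 9 of 16 were called lower in this comparison. The light-strand ones were MT-TC (-1.44, SE 0.17, edgeR adjusted p = 4.2e-07), MT-TP (-1.26, SE 0.20, adjusted p = 7.65e-06) and MT-TY (-1.42, SE 0.27, adjusted p = 9.29e-05). The heavy-strand ones were MT-TV (-2.01, SE 0.32, adjusted p = 1.99e-05), MT-TT (-1.66, SE 0.33, adjusted p = 1.67e-04) and MT-TL1 (-1.07, SE 0.25, adjusted p = 0.00574), and these 6 calls held under every alternative.

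MT-TL1, with most of the tRNA reads, was at 666, 750.1 and 641 CPM in WT GSK-LSD1 and 251, 310.3 and 415 CPM in insR GSK-LSD1. MT-TM (-1.10, SE 0.38, edgeR adjusted p = 0.0174) lost its call without WT GSK-LSD1 replicate 1 or 2 or insR GSK-LSD1 replicate 2 (up to 0.0822). MT-TI, the isoleucine tRNA (-1.16, SE 0.40, adjusted p = 0.0174), lost its call without WT GSK-LSD1 replicate 2 or insR GSK-LSD1 replicate 3 (up to 0.117).

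MT-TL2 had a log2 difference of -2.15 (SE 0.62, edgeR adjusted p = 0.0054), on 92 reads in all 12 libraries. It reached the filter's 1.67 CPM in 3 libraries, all of them WT, and so was tested only through the genotype where it was high. Its lower values in insR cells, with DMSO as well, are not independent of that filter. It was not tested with only the compared groups in the fit, and with all genes of at least 1 count its log2 difference was -2.13 (adjusted p = 0.00603).

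MT-TQ was the member called higher, at 1.93, 3.11 and 3.10 CPM in insR GSK-LSD1 against less than 1 CPM in each WT GSK-LSD1 library. The log2 difference was 1.85 (SE 0.48, edgeR adjusted p = 0.00217), on 4, 3 and 8 reads in the WT GSK-LSD1 libraries. MT-TQ reached the filter's 1.67 CPM in 3 libraries of each insR group, 2 WT DMSO and 0 WT GSK-LSD1 libraries. Its call is thus not independent of the filter. Among the mRNAs MT-ATP6, a subunit of the proton channel of ATP synthase, was called lower. It was at 1364, 1013 and 1035 CPM in WT GSK-LSD1 and 599.9, 753 and 922 CPM in insR GSK-LSD1, with -0.58 (SE 0.17, adjusted p = 0.0127). MT-ND6 was not called, at 0.51 (SE 0.23, adjusted p = 0.089).

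**Figure D4:**
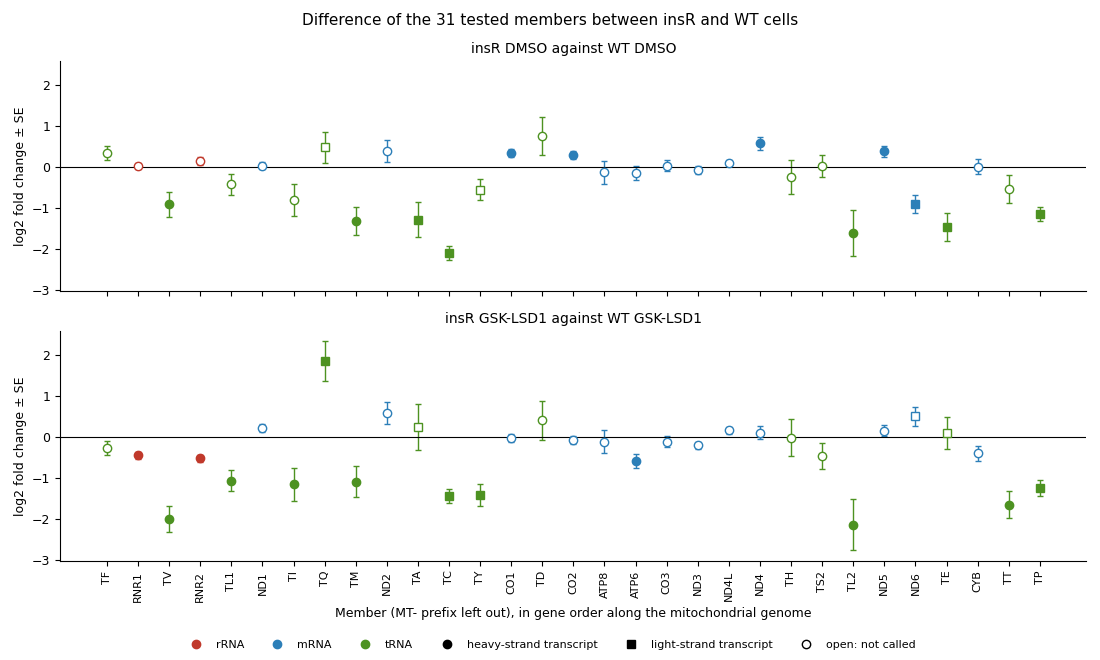
Log2 difference (± SE) of the 31 tested members between insR and WT cells with DMSO (top) and with GSK-LSD1 (bottom), in gene order along the mitochondrial genome, coloured by class, with circles for the heavy-strand and squares for the light-strand transcript and open symbols for members not called. The rRNAs lie near 0 with DMSO and at -0.45 and -0.53 with GSK-LSD1, and MT-TC and MT-TP are below -1 in both.

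The proteins that copy, process and translate these RNAs are encoded in the nucleus. In WT cells given GSK-LSD1, genes for mitochondrial ribosomal proteins and for RNA processing were called lower in a larger share than the 22.5% of all tested genes, while lists for transcription, ribosome assembly and translation factors were near or below that share. These lists were drawn up by role with earlier results of these data known, and their medians stand beside a median of 0.01 for all tested genes. Of 77 tested genes for proteins of the mitochondrial ribosome, 58 were called lower and 0 higher, with a median log2 fold change of -0.46. MRPS12 of the small subunit had -0.78 (SE 0.08, edgeR adjusted p = 1.5e-08), and MRPL37 and MRPL3 of the large subunit each had -0.76 (SE 0.08, adjusted p = 1.88e-08 and 4.19e-08).

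For mitochondrial RNA processing and stability, 14 of 19 tested genes were called lower and 0 higher, with a median of -0.45. REXO2, a nuclease that clears short RNA fragments, was at 135 ± 5.22 CPM with DMSO and 73.2 ± 7.92 CPM with the inhibitor (SD, n = 3 each), a log2 fold change of -0.88 (SE 0.09, edgeR adjusted p = 1.58e-08). SLIRP, a partner of LRPPRC in holding mitochondrial mRNAs, had -0.82 (SE 0.08, adjusted p = 2.61e-08). PNPT1, the exonuclease of the mitochondrial degradosome, had -0.80 (SE 0.12, adjusted p = 1.08e-05).

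Of 9 tested genes of mitochondrial transcription 2 were called lower and 0 higher, near the share of all genes, with a median of -0.21. They were TFAM, which packages the genome and starts transcription (-0.55, SE 0.07, edgeR adjusted p = 9.2e-07), and TFB2M, which opens the promoter (-1.09, SE 0.35, adjusted p = 0.0157). Replication and nucleoid genes had 2 called higher and 7 lower of 13. Of these TOP1MT, the mitochondrial topoisomerase I, was higher (0.96, SE 0.09, adjusted p = 5.25e-09) and SSBP1, the single-strand DNA binding protein, lower (-0.71, SE 0.08, adjusted p = 4.04e-08).

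Over all tested genes 22.7% were called higher and 22.5% lower. Genes for rRNA and tRNA modification had 1 higher and 11 lower of 23, and those for ribosome assembly 2 and 3 of 11. Translation factors had 0 and 2 of 14, and mitochondrial aminoacyl-tRNA synthetases 0 and 9 of 22. The median log2 fold changes of these lists, in that order, were -0.28, -0.37, -0.14 and -0.28. Nuclear subunits of the respiratory complexes had 1 higher and 17 lower of 37 for complex I, 0 and 1 of 4 for complex II, 0 and 7 of 9 for complex III, 1 and 5 of 11 for complex IV, and 0 and 14 of 18 for ATP synthase. In insR cells 0 genes of any of these lists were called with GSK-LSD1, where 0.505% of all tested genes were. The difference in response was called for 38 of the 77 ribosomal protein genes and 10 of the 19 processing genes, all above 0, beside 13.3% of all tested genes with a difference above 0.

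**Figure D5:**
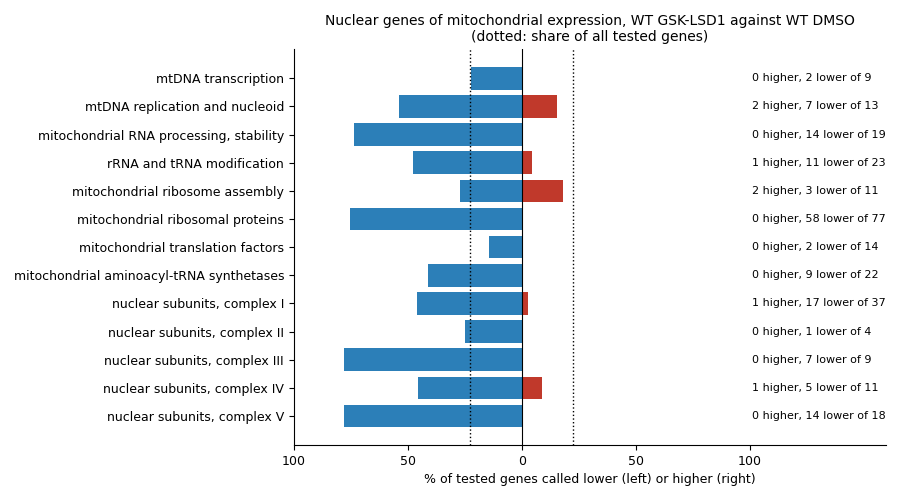
Share of tested genes called lower (left, blue) or higher (right, red) in WT cells with GSK-LSD1, for 13 lists of nuclear genes that serve mitochondrial gene expression or the respiratory chain, with counts at the right and dotted lines at the 22.7% higher and 22.5% lower of all tested genes. Genes for mitochondrial ribosomal proteins and for RNA processing lie furthest to the left with complexes III and V, and translation factors have fewer called lower than all genes.

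Nuclear copies of mitochondrial genes could take up member reads. The tables list 389 rows named as such copies, of which 72 had a read and 6 were tested, and their reads were 0.13 to 0.2% of the member reads in each library. Reads that mapped to more than 1 place were not counted for any gene, and they were 57.9 to 62.6% of the entries in each table, so reads that fit a member and a copy equally well are missing from these counts.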

How the data were processed

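The 12 libraries were sequenced by the authors with QuantSeq 3' FWD, and per the submitters' processing notes the tools were bcl2fastq 2.2, STAR 2.6.0c, HTSeq 0.9.1 and DESeq2 with the hg19 build. The authors deposited HTSeq counts per Ensembl gene, and a table of normalized values (signal), which from its values are counts that the authors divided by 1 size factor per library: 100.0% of its values came out as whole reads (tolerance 0.01) and 0 genes differed from the counts, so a count test on them is the fit below, which called 5816 genes for the WT response. Neither the strand setting nor the annotation release was stated. Symbols were matched by gene ID, and transcript order, strand and sequences came from GENCODE 29.

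Counts of all 12 libraries were fitted together with edgeR 4.0.16 (robust quasi-likelihood, TMM scaling, filterByExpr) in R 4.3.3, with Benjamini-Hochberg adjustment over all genes tested. A gene was called at an adjusted p under 0.05. HTSeq's summary entries stayed out of library sizes; 3 counts correspond to 0.296 to 0.62 CPM. The fits were tested on simulated data. limma 3.58.1 and DESeq2 1.42.0 were alternatives.

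The members and lists were chosen with earlier results of these data known. Members called in any comparison, and both rRNAs, are named with statistics. Other lists are given by counts, some of them also with medians and up to 3 called genes of lowest p. Further lists are not discussed above. In treated WT cells, regulators of mitochondrial biogenesis had 1 higher and 3 lower of 8 tested, and apoptosis and mitophagy genes 3 and 2 of 9. Of RNAs without a poly(A) tail, 1 was tested and 0 were called. Over all tested genes 22.7% were called higher and 22.5% lower.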

Additional observations from a re-analysis of the deposited data

Results flagged for a closer look

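The response to GSK-LSD1 differed between WT and insR cells for 4 of 31 tested members by the edgeR test of the difference itself (insR response minus WT response, log2). The value was -0.677 for MT-RNR2 and -0.476 for MT-RNR1, the rRNAs that rose in WT cells and had values near 0 in insR cells. It was 1.41 for MT-ND6, the light-strand mRNA that fell in WT cells, where insR DMSO libraries already held less of it than WT DMSO libraries. It was 1.563 for MT-TE, which adjoins MT-ND6, on 1.83 to 6.32 CPM in WT libraries. The part of the lower MT-ND6 and MT-TE levels in untreated insR cells in this difference was not tested.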

How the results depend on the processing

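Members called numbered 11 for the WT response (7 to 13 with 1 library left out, 7 without WT DMSO replicate 1; 6 at adjusted p under 0.01), 0 for the insR response (0 in all alternatives), 4 for the difference in response (3 to 9; 10 with all genes of at least 1 count; 8 without WT DMSO replicate 2, 7 without insR DMSO replicate 3, 9 without insR GSK-LSD1 replicate 3), 12 for insR against WT with DMSO (6 to 12; 6 without insR DMSO replicate 3; 5 at adjusted p under 0.01) and 13 with GSK-LSD1 (11 to 16). The cause of these changes was not tested. MT-RNR1 changed sign where it was not called: its insR response was -0.122 to 0.003 with 1 library left out (0.003 without insR DMSO replicate 1), and its difference between insR and WT with DMSO was -0.038 to 0.088 (-0.006 without WT DMSO replicate 3, -0.038 without insR DMSO replicate 1). Over the named members 925 of 1005 alternative values kept direction and side of the threshold, 77 lost the call and 3 reversed. The log2 ratio of the rRNA share for the WT response stayed between 0.534 and 0.659, and that of the mRNA share between -0.079 and 0.089. With the replicate number as a block (replicate block) the counts were 12, 0, 4, 11 and 13, and MT-ND4 and MT-ND5 lost their calls in insR against WT with DMSO (adjusted p = 0.0502 and 0.0617, edgeR). Deviations of libraries with the same number were weakly correlated (r -0.169 to 0.198 over 18 pairs). The labels do not say whether the numbers pair the samples, and correlations within groups of 3 cannot settle it. Depth limits the tRNAs with few reads, of which 6 could not be tested.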
